A study of Drosophila melanogaster with 8 samples.

Results

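The Enhancer of split complex was examined in NanoDam profiles of Chronophage (Cph), the *Drosophila* BCL11 zinc-finger transcription factor, in midgut progenitors. Its members were 10 named genes, out of 18277 annotated genes: 7 basic helix-loop-helix (HLH) genes, *E(spl)mδ-HLH*, *E(spl)mγ-HLH*, *E(spl)mβ-HLH*, *E(spl)m3-HLH*, *E(spl)m5-HLH*, *E(spl)m7-HLH* and *E(spl)m8-HLH*, and 3 Bearded family (BFM) genes, *E(spl)mα-BFM*, *E(spl)m2-BFM* and *E(spl)m4-BFM*. Each member was taken as a gene window, its annotated body plus 3 kb upstream. The genes lie at chr3R:25997621-26041008 (assembly BDGP6), and with the upstream parts the complex spans 46.4 kb, of which 33.9 kb fall in the windows. Below, members are called by their last part (mδ, m8).

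In 4 Cph NanoDam samples (genotype CphYFP x UAS-NanoDam x esgTS), the *esg*TS driver expressed NanoDam, the Dam methylase joined to a nanobody against GFP and YFP, in progenitors of flies whose own Cph carries YFP. In 4 NanoDam-only control samples (UAS-NanoDam x esgTS), the same driver expressed NanoDam in flies without the tagged Cph, so that GATC sites were methylated without a target for the nanobody. Adult flies aged 3 to 5 days were moved from 18 °C to 29 °C for 17 h, and each sample held 30 midguts. In both genotypes the labels place replicates 3 and 4 in batch 2 and give replicates 1 and 2 no batch. NanoDam acts where *esg* is active, so the profile pools intestinal stem cells and their undifferentiated daughters, and with no transcripts measured their identity rests on the driver.

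The E(spl) genes are classical targets of Notch. When a neighbouring cell presents a ligand, the cleaved receptor joins the DNA-binding protein Su(H), and the complex switches on HLH genes, whose products repress transcription together with the corepressor Groucho. The BFM genes are activated by the same route and encode small proteins that hold back the ubiquitin ligase Neuralized and thereby ligand activity. In the fly midgut this response marks the daughter that takes the absorptive enterocyte fate, while cells with little Notch activity can become enteroendocrine.

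For each library the authors deposited broad peaks called without a control, and for each Cph library also peaks called against the control of the same replicate number, here Cph-over-control peaks. MACS2 recorded 55557571 to 125721243 reads per library, and in every pair the control was the deeper library, by 1.14 to 1.31 times. Of the genome, 9.87% to 12.6% lay in peaks called without a control in Cph NanoDam, against 11.3% to 12.9% in the control. These peaks show where NanoDam methylated the DNA in each genotype, and the question is where tagged Cph raised or lowered this. Reads at single positions are not listed, and the depth there is unknown.

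The sequences of 5 places named in the results are given first (BDGP6, plus strand, from the release 6 genome of RefSeq). Capitals mark GATC, the only site at which Dam can write its mark, and the letters bound by Su(H), searched on both strands as CGTGGGAA, TGTGGGAA, CGTGAGAA and TGTGAGAA. The first is the middle of the stretch called in Cph NanoDam alone, between mγ and mβ, the second the coding stretch of mα with the highest pileup of the complex, and the third the middle of the region of highest Cph-over-control fold enrichment. The fourth is the middle of the stretch upstream of m3 with lower pileup in Cph NanoDam. The fifth holds the bases before the start of m8, the member whose peaks covered less of its window in Cph NanoDam. The stretch that set m8 apart lay at its 3′ end, outside the printed bases.
Cph NanoDam alone, chr3R:26003352-26003651: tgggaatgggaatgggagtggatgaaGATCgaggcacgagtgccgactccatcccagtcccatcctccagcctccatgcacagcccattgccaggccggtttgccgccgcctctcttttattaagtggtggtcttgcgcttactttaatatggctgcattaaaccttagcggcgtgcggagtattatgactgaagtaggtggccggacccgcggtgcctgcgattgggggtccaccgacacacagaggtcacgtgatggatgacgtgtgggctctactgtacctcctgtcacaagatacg
mα coding, chr3R:26011158-26011358: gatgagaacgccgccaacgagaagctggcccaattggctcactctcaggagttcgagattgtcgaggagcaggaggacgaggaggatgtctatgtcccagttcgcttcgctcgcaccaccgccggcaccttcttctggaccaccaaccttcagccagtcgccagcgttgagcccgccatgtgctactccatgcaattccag
between mα and Kaz-m1, chr3R:26013438-26013737: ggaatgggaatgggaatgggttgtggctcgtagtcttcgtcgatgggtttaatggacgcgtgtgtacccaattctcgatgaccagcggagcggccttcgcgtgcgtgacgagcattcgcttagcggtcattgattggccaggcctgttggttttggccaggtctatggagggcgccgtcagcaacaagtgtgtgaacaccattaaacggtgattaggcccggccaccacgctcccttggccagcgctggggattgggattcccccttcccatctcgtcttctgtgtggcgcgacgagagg
upstream of m3, chr3R:26020736-26021035: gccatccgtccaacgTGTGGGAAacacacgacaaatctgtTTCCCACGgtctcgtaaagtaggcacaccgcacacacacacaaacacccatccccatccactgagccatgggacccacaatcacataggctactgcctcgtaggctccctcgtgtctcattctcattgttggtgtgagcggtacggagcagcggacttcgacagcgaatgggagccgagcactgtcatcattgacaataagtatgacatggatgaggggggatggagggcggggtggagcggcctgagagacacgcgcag
m8 upstream, chr3R:26039990-26040239: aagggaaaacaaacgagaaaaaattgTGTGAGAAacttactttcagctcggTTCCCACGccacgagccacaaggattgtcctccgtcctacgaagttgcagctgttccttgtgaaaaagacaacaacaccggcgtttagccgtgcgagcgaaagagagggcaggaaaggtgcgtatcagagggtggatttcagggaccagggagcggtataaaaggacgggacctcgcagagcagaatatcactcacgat

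In the 300 bases around the start of each gene (250 before and 50 after), Su(H) letters occurred in 3 of 10 members, m4, m5 and m8, against 3.18% of the promoters of 13968 protein-coding genes. The promoter of m8 held 2 matches, with 1 on each strand as printed. At least 2 matches, on whichever strand, were found in 0.0788% of all promoters. A pair of matches on opposite strands also stands in the printed stretch upstream of m3. Among 300-bp centres of regions in peaks of all 8 libraries, 4 of 14 in the complex held Su(H) letters, against 2.77% of 16229 in the genome. The letters TGACCA, the motif known for mammalian BCL11A, were found on either strand in 0 of 10 member promoters, against 15.1% of all promoters, and in 1 of the 14 centres, against 17.9%. The complex held 211 GATC sites, 4.55 per kb, where the median gene window had 3.35. These matches describe letters and not binding.

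**Figure D1:**
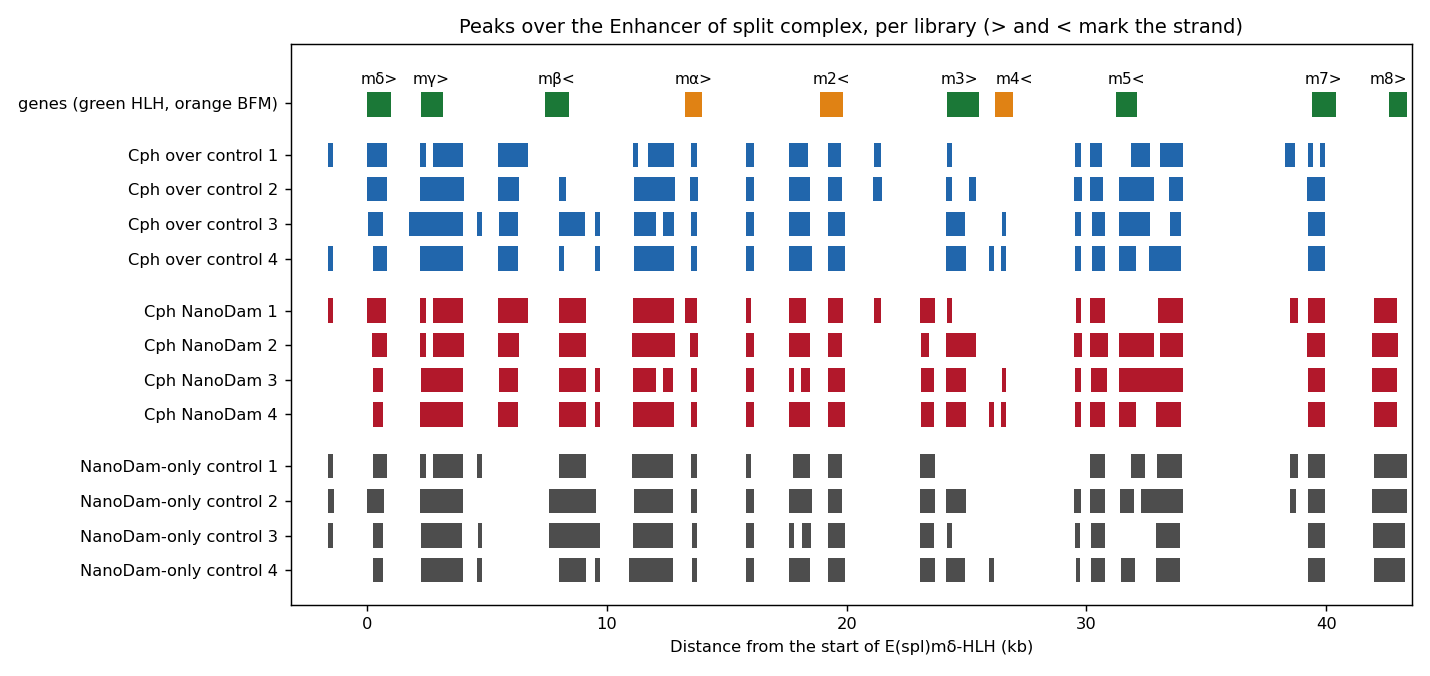
Peaks over the complex, plotted by distance in kb from the start of E(spl)mδ-HLH, with 1 row per library: Cph-over-control peaks (blue), peaks called without a control in Cph NanoDam libraries (red) and in NanoDam-only control libraries (grey). Of 22 stretches of peaks called without a control, 13 have a peak in all 8 libraries. The stretch near 6 kb has peaks in the 4 Cph NanoDam rows and in 0 control rows, and blue rows are empty at m8.

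Peaks lay in the window of every member in both genotypes. Every library had one in every window except control replicate 1 at m4, and 0 of 10 members had no peak in any library, against 11.2% of all genes. Of the complex, 29.3%, 32.3%, 31.1% and 30.9% lay in peaks called without a control in Cph NanoDam replicates 1 to 4, against 27.1%, 33.6%, 27.6% and 29.5% in control replicates 1 to 4. The means were 30.9% ± 1.22 in Cph NanoDam and 29.4% ± 2.95 in the control (SD, n = 4 each), the groups overlapped, and the difference of 1.45 percentage points did not pass an exact two-sided permutation test (p = 0.4). The peaks joined into 22 stretches, of which 13 had a peak in all 8 libraries. In 10 of these 13 stretches a Cph-over-control peak was present in all 4 replicates, whereas 2 of them, at m8 and upstream of m3, had none in any replicate.

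Among the HLH genes, m8, one of the HLH repressors best known from sensory bristle formation, was the only member whose share of window in peaks separated the genotypes. Its window lay in peaks by 33.9%, 37.5%, 36.0% and 33.8% in Cph NanoDam replicates 1 to 4, against 45.4%, 48.2%, 44.9% and 42.6% in the control. Every Cph NanoDam value was below every control value, and Cph NanoDam was lower in 4 of 4 pairs. The means were 35.3% ± 1.78 in Cph NanoDam and 45.3% ± 2.30 in the control (SD, n = 4 each), a difference of -9.99 percentage points (exact two-sided permutation test, p = 0.0286, the smallest value this design allows). After Benjamini-Hochberg adjustment over 18277 genes p was 0.393, which is also the smallest adjusted value of any gene, and the sign changes within pairs gave p = 0.125 in an exact test that can go no lower.

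With this unadjusted threshold, 1 of 10 members was lower in Cph NanoDam and 0 of 10 were higher, against 5.81% of all genes lower and 1.47% higher (1061 and 269 of 18277). No gene passed after adjustment. The excess of lower genes across the genome stood beside a deeper control library in every pair, and the part of depth in the m8 difference was not tested.

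The stretch that set m8 apart lay at its 3′ end. A stretch of 295 bp in the coding and 3′ untranslated sequence of m8 (chr3R:26040606-26040900) was in peaks of 4 control libraries and 0 Cph NanoDam libraries, 1 of 468 such stretches in the genome, and 3.39% of gene windows held one. Over the start of m8 (chr3R:26039637-26040566) both genotypes had peaks in all libraries. There the log2 pileup relative to the library's median was -0.62, -0.58, -0.14 and -0.45 in Cph NanoDam and -0.29, -0.30, -0.19 and -0.13 in the control, a difference of -0.22 ± 0.17 (SE; limma, adjusted p = 0.419). Peaks thus covered less of m8 in Cph NanoDam at its 3′ end, and at its start the groups overlapped in height.

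For mβ, the HLH gene next to mα, the values leaned the same way. Its window was covered by 36.7%, 37.6%, 41.8% and 42.0% in Cph NanoDam, against 37.0%, 55.8%, 60.7% and 45.6% in the control. Cph NanoDam was lower in 4 of 4 pairs, but the groups overlapped and the difference of -10.2 percentage points missed the threshold (exact permutation p = 0.143). The other HLH members showed smaller or more scattered differences. The mδ window averaged 15.4% ± 6.32 in Cph NanoDam and 17.4% ± 5.65 in the control, and the mγ window 34.7% ± 0.884 in Cph NanoDam and 35.6% ± 4.48 in the control. The m3 window averaged 31.0% ± 4.91 in Cph NanoDam and 24.6% ± 9.38 in the control, and the m7 window 20.2% ± 4.30 in Cph NanoDam and 21.6% ± 4.70 in the control (SD, n = 4 each). The m5 window varied most, with 26.5%, 61.7%, 68.7% and 45.4% in Cph NanoDam against 43.1%, 59.1%, 26.4% and 41.8% in the control, and without replicate 3 its difference of 7.96 percentage points turned to -3.49.

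Among the BFM genes, mα had the most covered window of the complex, with 61.5%, 57.6%, 42.8% and 53.4% in Cph NanoDam and 53.2%, 51.4%, 50.6% and 55.5% in the control. Cph NanoDam was higher in both pairs of replicates 1 and 2 (7.28 percentage points) and lower in both pairs of batch 2 (-4.95), so the mean difference of 1.16 had no common direction. The m4 window was the least covered, with 5.72%, 8.30%, 12.1% and 12.3% in Cph NanoDam and 0%, 7.69%, 5.72% and 5.27% in the control. Cph NanoDam was higher in 4 of 4 pairs, and the difference of 4.93 percentage points missed the threshold (exact permutation p = 0.0857). The m2 window averaged 18.2% ± 3.25 in Cph NanoDam and 16.2% ± 1.74 in the control.

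**Figure D2:**
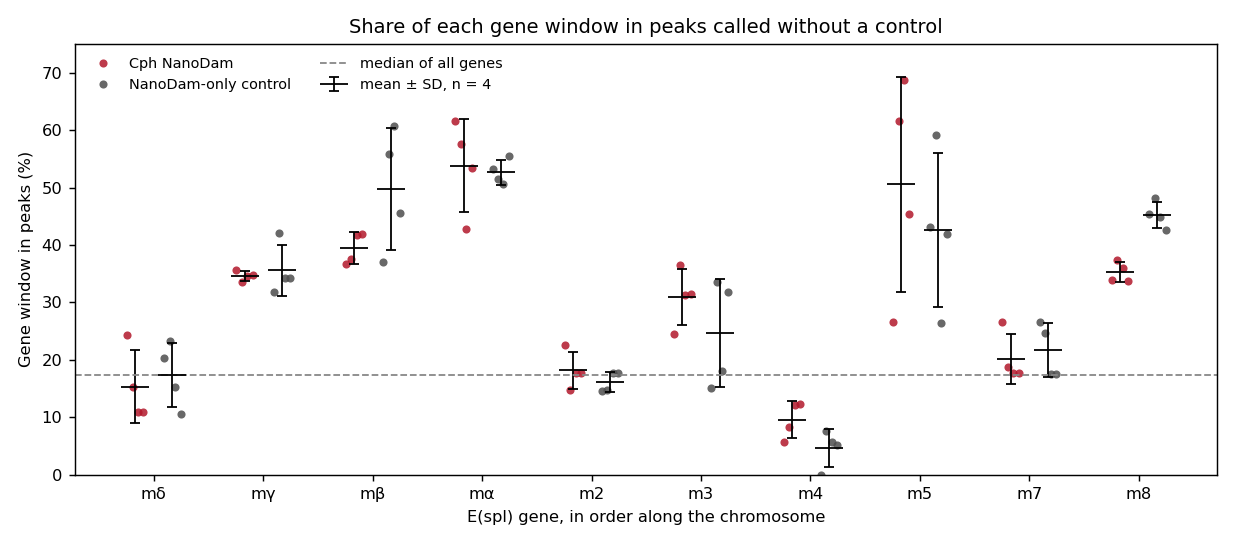
Percent of each gene window in peaks called without a control (vertical axis) for the 10 members in chromosomal order, Cph NanoDam (red) left of NanoDam-only control (grey), with 1 point per library and mean ± SD (n = 4). Only at m8 do all Cph NanoDam points, 33.8% to 37.5%, lie below all control points, 42.6% to 48.2%, and m4 lies below the median of all genes (dashed, 17.3%) in every library.

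Set against all genes, the members differed widely in how much of their window NanoDam reached. Their median over all libraries was 31.5%, against 17.3% for all genes. By mean share, m4 stood at percentile 28.4 of all gene windows and mδ and m2 near the middle (47.9 and 49.6), while m8 (92.5), mβ (95.4), m5 (96.3) and mα (98.3) were near the top. Neighbouring windows overlap for 8 of the 10 members, so their values are not independent.

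Cph-over-control peaks occurred throughout the complex. They covered 23.4%, 26.3%, 28.0% and 27.0% of it in replicates 1 to 4, and 10 of 10 members had at least 1 in the window in every replicate, against 48.5% of all genes. Regions of at least 200 bp in such peaks of all 4 replicates, here shared regions, numbered 17 in the complex, or 0.366 per kb. Over the full length of all chromosomes, Y and gene-poor DNA included, there were 7289, or 0.0530 per kb. Of the 10 members, 9 had a shared region in the window, against 35.5% of all genes, and 4 members, mγ and mα with 3 each and m5 and m7 with 2 each, had more than 1, against 13.1% of all genes. Some of these regions are 1 peak split in a single replicate. Without replicate 1, mγ had 2 and m7 had 1, and without replicate 3, mα had 2. Of the mγ regions, 1 lay in the mδ gene. With the gene body alone, 7 of 10 members had a shared region, against 22.2% of all genes. The denser GATC sites and the larger share of the complex in peaks of both genotypes stand beside these counts, and their part in them was not tested.

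The shared regions fell in several kinds of place. Over member genes there were 9, of which 3 covered a start (mγ, m3 and m7). In no annotated gene there were 7, and 1 lay over *Kaz-m1*, a gene of a Kazal-type protease inhibitor between mα and m2. Of the 17 regions, 7 held no GATC and thus lay within a single fragment between sites. In the 300 bp at their centres, 5 of 17 held TGACCA, against 19.3% of all 7289 shared regions, and 1 of 17 held Su(H) letters, against 2.62%. In 13 of 17, all 4 control libraries also had a peak at the place, so these regions were reached by NanoDam in both genotypes.

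The highest mean fold enrichment over control was at the intergenic region between mα and *Kaz-m1* (chr3R:26013419-26013756). It lay 2526 bp downstream of the mα start, outside every member window, and had 2.38, 3.71, 2.75 and 4.15 in replicates 1 to 4. Next came m2, with 2.21, 3.74, 2.82 and 2.81 over its start-proximal coding sequence (chr3R:26016854-26017404). The coding region of mα had 2.24, 3.09, 3.24 and 2.85 (chr3R:26011143-26011373). At m7 the region over the start had 2.03, 2.82, 3.05 and 2.52, and at mγ it had 2.41, 3.14, 2.54 and 2.30. All 17 means lay between 1.76 and 3.25, around the median of 2.03 for shared regions genome-wide, whose means reached 17.3. The complex thus held many Cph-over-control regions, with fold enrichments near those of shared regions elsewhere.

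At mδ the region over the coding and 3′ untranslated sequence had 2.00, 2.35, 2.31 and 2.32. At m3 a region over the start and 5′ untranslated sequence had 1.81, 2.19, 2.09 and 2.29, and at m5 a coding region had 1.74, 2.16, 2.44 and 2.63. The shared region of m4 lay upstream of it in no annotated gene (chr3R:26027135-26027379) and had 2.12, 1.56, 2.16 and 2.91. The single shared region in the m8 window lay in the coding sequence of m7, not at m8. The mβ window had no shared region, although 1, 2, 3 and 3 Cph-over-control peaks touched it in replicates 1 to 4. This rested on replicate 1, without which mβ had 2 shared regions and 10 of 10 members had at least 1, against 48.3% of all genes.

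By the highest Cph-over-control fold enrichment in the window, the members' median stood at percentile 77.3 of all gene windows, against 50.4 for all genes. mα (88.1) and m2 (87.4) ranked highest, followed by m7 (82.3), mγ (81.9), m8 (81.2, from the region in m7), m5 (73.3), mδ (72.9), m4 (66.8), m3 (64.2) and mβ (43.5). The spread between replicates was widest for m4, whose percentile was 80.4, 37.3, 56.3 and 93.3, so its rank cannot be set apart from its neighbours in this order. In replicates 2 to 4 the highest fold enrichment in the mβ window came from a wide peak that runs on into intergenic DNA upstream of mα. Other ranks also rested in part on peaks outside the gene. The mδ value in replicate 1 (2.14) came from a peak over *CG43116*, and the mγ value in replicate 4 (2.32) from the peak in the mδ gene. For m4 in all replicates, and for m5 in replicates 1 and 2, the value came from an intergenic peak upstream. Ranked by the highest −log10 q in place of fold enrichment, mβ stood at 81.4. With 1 kb upstream in place of 3 kb, which leaves out the region in m7, m8 stood at 22.5 and m4 at 41.5.

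**Figure D3:**
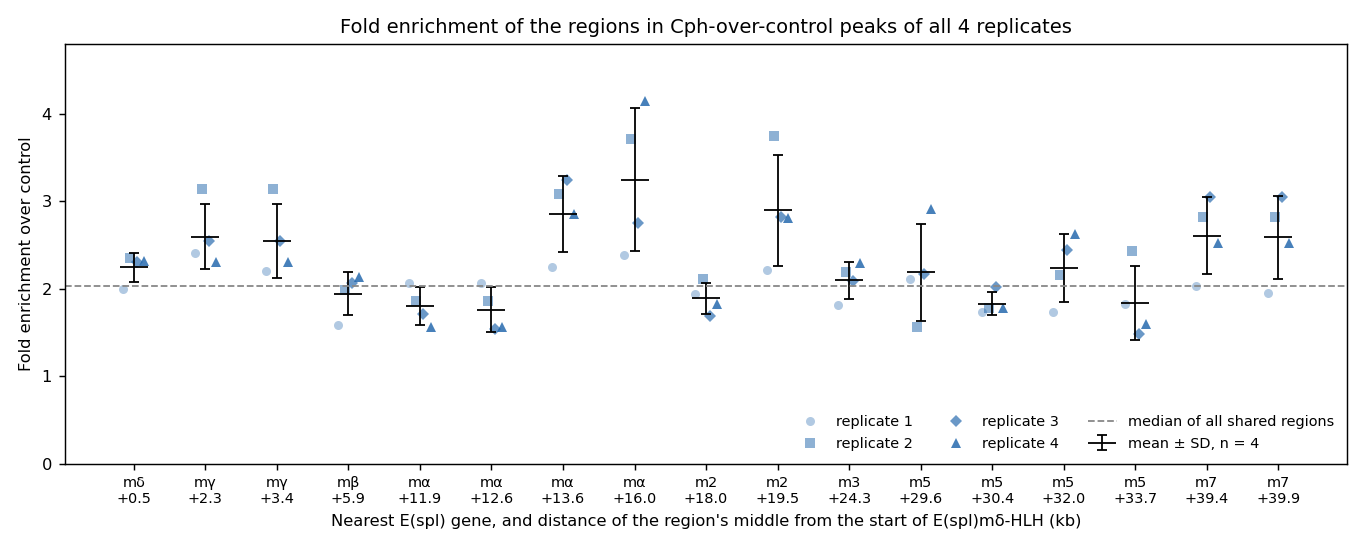
Fold enrichment over control (vertical axis) of the 17 shared regions, in order along the complex with the nearest member and the distance in kb from the start of E(spl)mδ-HLH, 1 symbol per replicate and mean ± SD (n = 4). The region between mα and Kaz-m1 has the highest mean, 3.25, and the regions lie around the median of all shared regions (dashed, 2.03).

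A single stretch of the complex was called in Cph NanoDam alone. At chr3R:26003098-26003905, 808 bp between mγ and mβ in no annotated gene, all 4 Cph NanoDam libraries and 0 control libraries had a peak. Its fold enrichment over control was 1.59, 1.98, 2.06 and 2.14. It lay 2118 bp from the mβ start, beyond the 3′ end of that gene and outside every member window, and held 4 GATC sites and no Su(H) letters. The genome held 312 such stretches, and 2.28% of gene windows contained one. Beside it, over the long non-coding RNA *CR45037* (chr3R:26002186-26002427), 3 control libraries and 0 Cph NanoDam libraries had a peak called without a control, although in replicate 3 a Cph-over-control peak of 1.87 covered it.

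Regions in peaks of all 8 libraries allow the height of the signal to be compared. In the genome 16229 such common regions of at least 200 bp were tested, 14 of them in the complex, on the log2 pileup less the median of the library. In the complex, 5 of 14 were higher in Cph NanoDam and 1 of 14 was lower at an adjusted p under 0.05 (limma with the replicate number as a block), against 5.85% higher and 4.33% lower of all common regions (950 and 703). With pileups scaled to the reads of each library in place of the median, 5 of 14 were higher and 0 lower, and over the genome 1076 were higher and 201 lower. At an unadjusted p under 0.05, 8 of 14 were higher and 1 lower, against 14.5% and 14.3% of all common regions. The median difference over the 14 regions was 0.40 on the log2 scale, against -0.02 over all common regions.

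The 5 regions with higher pileup in Cph NanoDam lay at mδ, mγ, m2 and between mα and *Kaz-m1*, the last outside every member window. Over the coding and 3′ untranslated sequence of mδ (chr3R:25997860-25998278), the log2 pileup relative to the median was 0.13, 0.95, 0.78 and 0.98 in Cph NanoDam and -0.23, 0.02, -0.13 and -0.05 in the control. All Cph NanoDam values lay above all control values, with a difference of 0.81 ± 0.18 (SE, adjusted p = 0.0192, limma). Over the start of mγ (chr3R:25999844-26000058), the values were 1.35, 1.70, 1.66 and 1.69 in Cph NanoDam and 0.74, 1.20, 0.91 and 0.99 in the control, again without overlap (0.64 ± 0.16, adjusted p = 0.0322, limma). With quantile normalization this region was no longer called (0.51, adjusted p = 0.0657, limma).

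At the 3′ end of mγ and the lncRNA beside it (chr3R:26000349-26001593), the values were 1.85, 2.49, 1.66 and 1.69 in Cph NanoDam and 1.21, 1.20, 0.91 and 0.99 in the control (0.85 ± 0.18, adjusted p = 0.0154, limma). In several libraries 1 wide peak covers both mγ regions and gives them the same pileup, so they are not independent. In replicate 2 the control had 1 such wide peak and Cph NanoDam had separate peaks, so unlike peak widths enter this pair. Their part in the difference was not tested. Without replicate 2 the difference at the 3′ region was 0.70 (adjusted p = 0.0556, limma). At the intergenic region between mα and *Kaz-m1* (chr3R:26013419-26013633), the values were 2.15, 2.77, 2.58 and 2.84 in Cph NanoDam and 1.68, 1.80, 2.10 and 1.73 in the control (0.76 ± 0.18, adjusted p = 0.0253, limma). This is also the place of the highest mean fold enrichment over control, and the groups did not overlap.

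Over the m2 coding and 5′ untranslated sequence (chr3R:26016854-26017430), the values were 1.82, 2.73, 1.79 and 2.06 in Cph NanoDam and 1.55, 1.67, 1.00 and 1.15 in the control. These groups did not overlap either, and the difference was 0.75 ± 0.18 (adjusted p = 0.0260, limma). Counting also the m7 start, where Cph NanoDam had 0.81 to 1.23 and the control 0.57 to 0.63 (0.42 ± 0.17, adjusted p = 0.126, limma), 6 of 14 regions had all Cph NanoDam values above all control values, against 5.56% of common regions genome-wide. In 0 of 14 they all lay below, against 5.1%.

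The single region with lower pileup in Cph NanoDam stood 782 bp upstream of m3 (chr3R:26020730-26021041), in an exon of the long non-coding RNA *CR43644*. The values were 1.07, 1.17, 1.86 and 1.85 in Cph NanoDam and 1.51, 1.66, 2.87 and 2.43 in the control. Cph NanoDam was lower in 4 of 4 pairs, but the groups overlapped, because both genotypes were higher in replicates 3 and 4. The paired difference was -0.63 ± 0.17 (adjusted p = 0.0421, limma). Pileup was thus lower upstream of m3 and higher at 5 other places of the same complex.

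The highest signal of the complex was not the one that differed most. The coding region of mα (chr3R:26011158-26011358), a single fragment bounded by 2 adjacent GATC sites, had a pileup of 8013, 17897, 12519 and 9271 in Cph NanoDam and of 10006, 9600, 7953 and 7258 in the control, not scaled for depth. By mean log2 pileup it stood at percentile 99.8 of all common regions. Relative to the library medians it was higher in Cph NanoDam in 4 of 4 pairs, by 0.51 ± 0.17, which did not pass (adjusted p = 0.0803, limma). The region over the start of mβ (chr3R:26005634-26006758) was next, at percentile 99.1, and there Cph NanoDam was lower in 4 of 4 pairs without passing (-0.30 ± 0.16, adjusted p = 0.256, limma). In all, 13 of 14 regions were above the library median and 7 of 14 in the top 10% of common regions.

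**Figure D4:**
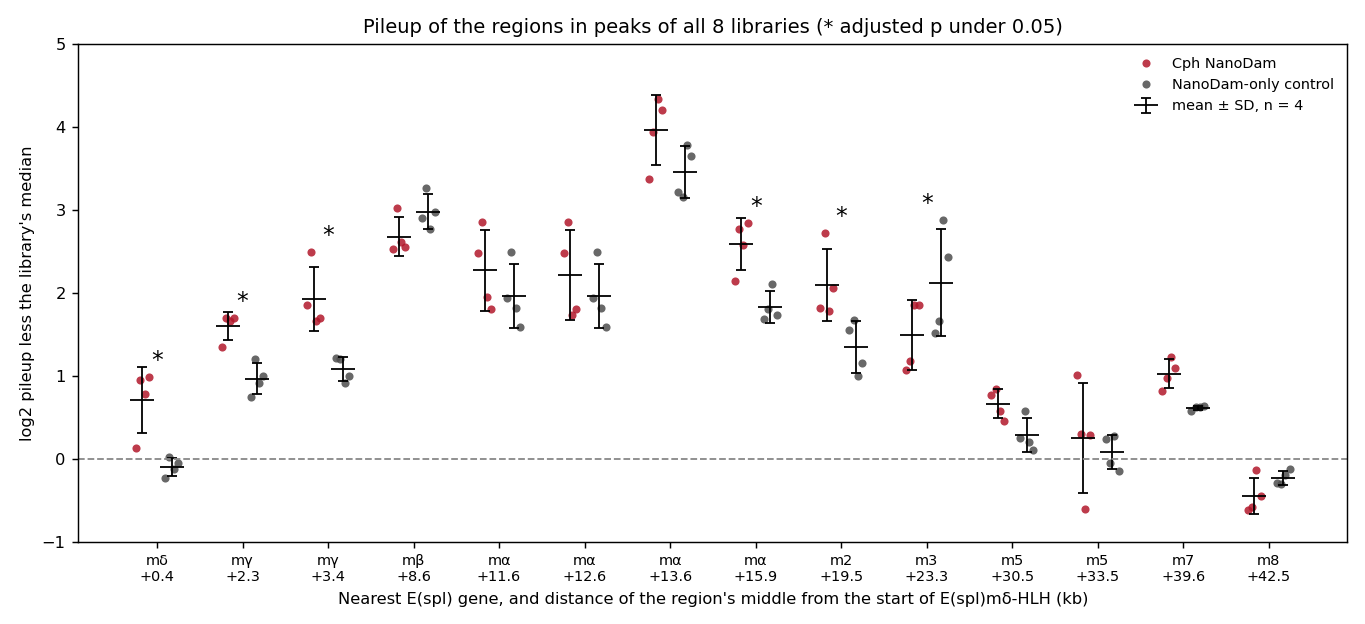
log2 pileup less the library's median (vertical axis) of the 14 regions of the complex in peaks of all 8 libraries, Cph NanoDam (red) left of NanoDam-only control (grey), 1 point per library with mean ± SD (n = 4). Asterisks mark an adjusted p under 0.05. Cph NanoDam lies above the control at mδ, both mγ regions, the region beyond mα and m2, and below it upstream of m3, while the mα coding region is the highest in both genotypes.

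These pileup calls changed with the pairing and with single libraries. Without the replicate block, 0 of 14 regions were called in either direction, and the adjusted p of the 6 regions ranged from 0.0982 to 0.335. Without replicate 1 all 6 were called again. Without replicate 2 or without replicate 3, 0 were called, and without replicate 4 only the 3′ region of mγ (0.90, adjusted p = 0.0410, limma). The direction of all 6 differences was the same within replicates 1 and 2 and within batch 2, with sizes between 0.46 and 0.97.

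Of 3 neighbouring genes, 1 separated the genotypes (lower in Cph NanoDam), against 5.81% of all genes lower and 1.47% higher. The window of *gro*, which encodes Groucho and adjoins the complex, lay in peaks by 32.8%, 31.0%, 29.2% and 33.9% in Cph NanoDam and by 39.1%, 44.1%, 36.9% and 36.3% in the control. As at m8, all Cph NanoDam values were below all control values, with a difference of -7.33 percentage points (exact permutation p = 0.0286, adjusted p = 0.393, and p = 0.125 with the replicate number as a block). *Kaz-m1* (-0.51 percentage points) and *E(spl)m6-BFM* (1.67), a further Bearded family gene inside the complex, did not separate. All 3 neighbours had a shared region, against 35.5% of all genes. These are in part regions already counted above. The highest fold enrichments in the *Kaz-m1* window, 2.38, 3.71, 2.75 and 4.15, were those of the region between mα and *Kaz-m1*. Those of *E(spl)m6-BFM*, 1.83, 2.44, 2.44 and 1.60, came from peaks that the m5 window also holds.

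Related genes elsewhere in the genome gave a mixed picture. Of all genes, 5.81% were lower in Cph NanoDam and 1.47% higher at an unadjusted p under 0.05, and 35.5% had a shared region. Of 5 other HLH repressor genes of the hairy and E(spl) type (*hry*, *dpn*, *Hey*, *Sidpn*, *cwo*), 0 reached an unadjusted p under 0.05, and 4 had a shared region. Of 4 other Bearded family genes (*Brd*, *Ocho*, *Tom*, *BobA*), 0 reached it and 1 had a shared region, while *Tom* had no peak in any library. Of 8 genes listed for the Notch pathway (*N*, *Delta*, *Ser*, *Su(H)*, *H*, *mam*, *klu*, *esg*), 2 were lower in Cph NanoDam and 0 higher, and 4 had a shared region. Among them, *esg* is the gene behind the driver and not part of the pathway itself. The 2 were *Delta*, the ligand that marks stem cells in the midgut (28.2% ± 4.40 in Cph NanoDam and 36.3% ± 3.00 in the control), and *Su(H)* (19.1% ± 2.19 in Cph NanoDam and 27.2% ± 2.54 in the control; SD, n = 4 each, exact permutation p = 0.0286 for both). Their adjusted p was 0.393, and with the replicate number as a block the exact p was 0.125 for both. As for m8 and *gro*, the control was the deeper library in every pair, and the part of depth was not tested. The median share over all libraries was 18.9% for the other HLH repressors and 10.1% for the other Bearded family genes. It was 23.3% for the 8 genes listed for the Notch pathway, *esg* included, against 31.5% for the E(spl) members.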

How the data were processed

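Cph NanoDam and NanoDam-only control samples were grouped by their labels, with 4 biological replicates each. Per the submitters' processing notes, reads were trimmed with Trim Galore 0.6.10, aligned to BDGP6 with Bowtie2 2.5.4 and handled with SAMtools 1.20. The authors called broad peaks with MACS2 (2.1.4 per the file headers, 2.2.9.1 per those notes), once per library without a control and once per Cph library with its same-numbered control, where the larger library was scaled to the smaller. They deposited for each peak the pileup, a signal not scaled for depth in the lists called without a control. Fold enrichment, the ratio of pileup to background, and the −log10 q-value were deposited as the authors' caller gave them, used within a list and not tested between lists.

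Genes came from Ensembl release 115 and sequences from RefSeq release 6. The last peak ends lay within the chromosome lengths of this assembly. The share of each gene window in peaks was compared between genotypes by exact permutation (two-sided, 70 arrangements) and adjusted by Benjamini-Hochberg over 18277 genes (Python 3.11.15, NumPy 2.4.6). The pileup of 16229 regions of at least 200 bp in peaks of all 8 libraries was centred on each library's median on the log2 scale and fitted with limma 3.58.1 in R 4.3.3. A peak's pileup is 1 mean over the whole peak, so regions within 1 wide peak share it. The tests were tried on simulated data first. Nothing in the labels ties replicates to separate crosses, so p-values measure the spread between these samples.

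The replicate number was used as a block. This pairing comes from the authors' lists. After group means were removed, log2 pileups of the 4 same-numbered pairs correlated by 0.508, 0.403, 0.430 and 0.479. Pairs of unlike number within batch 2 correlated by 0.483 and 0.524, as strongly as pairs of like number there. Within replicates 1 and 2, pairs of unlike number correlated by 0.324 and 0.112, less than pairs of like number there. Reads per library, 55557571 to 125721243, were taken from the file headers. All 10 members were named, with gene lists for the neighbourhood and the Notch pathway, of which *BobB* and *BobC* were not used here because the annotation lists neither. Members, lists and tests were chosen with earlier results of these data known.

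Alternatives covered the upstream length, thresholds on fold enrichment and −log10 q, minimum length, number of replicates, normalization, the block, each replicate left out and each replicate set. The use of the replicate set as a block was added after the data were seen. Lists of other experiments were not analysed here.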

Additional observations from a re-analysis of the deposited data

Results flagged for a closer look

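Of 75 sets of 4 replicate values (shares, pileups and fold enrichments of the members and their regions), 5 had 1 value set apart from the other 3 by more than the 95% critical value of Dixon's test, while chance alone gives about 5%. The share of the m7 window in peaks was 26.6% in Cph NanoDam replicate 1, against 17.7% to 18.7% in the other Cph NanoDam replicates. At the start of mγ, Cph NanoDam replicate 1 had a log2 pileup of 1.35 relative to the median, below the other 3 at 1.66 to 1.70. At the start of mβ, Cph NanoDam replicate 2 stood above the others at 3.03. Fold enrichment over control was lowest in replicate 1 at mδ (2.00), and highest in replicate 3 at the intergenic region between m4 and m5 at chr3R:26027843-26028262 (2.02). The mγ and mδ differences in pileup held without replicate 1 (0.65 and 0.96, adjusted p = 0.0471 and 0.0107, limma).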

How the results depend on the processing

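Of 272 differences in share or pileup under alternatives, 253 had the sign of the reported value, 17 the opposite sign and 2 were 0. The 253 include differences that could not turn. Settings of the block change only the p-value and repeat the reported difference, and the highest pileup gave the same values. The threshold on −log10 q also left every member's share difference as it was. The sign of the share difference turned for mδ with the gene body alone (2.79 percentage points), with 1 kb upstream (1.40) and with only peaks enriched at least 2-fold (5.47), and under the last also for mγ (9.97) and m7 (0.094). With 1 pair left out it ranged from -4.03 to 0.033 for mδ, -2.52 to 1.62 for mγ, -1.23 to 4.13 for mα, -3.49 to 16.1 for m5 and -1.98 to 0.092 for m7. The log2 pileup upstream of m5 (chr3R:26030687-26031536) ranged from -0.028 to 0.52. Within replicates 1 and 2 the share difference was -7.01 for m5, and within batch 2 it was -4.95 for mα, 0.50 for mγ and 0.11 for m7, where the pileup upstream of m5 differed by -0.22. For none of these 6 was the difference called, and the cause was not tested.

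The call at m8 was lost under the replicate block (0 members, exact p = 0.125 at best), as were those at *gro*, *Delta* and *Su(H)*, and with any 1 pair left out (0 members), since 3 against 3 libraries cannot go below p = 0.1 in the exact test. Its difference then ranged from -10.4 to -9.46 percentage points. Shared regions of at least 500 bp numbered 4 in the complex, in the windows of 2 members (8.90% of all genes), and those in peaks enriched at least 2-fold numbered 7, in 5 members (10.4%). At 500 bp, 0 regions were in control peaks alone. Without the replicate block the pileup gave 0 higher and 0 lower regions in the complex (92 and 39 in the genome). Regions of at least 500 bp gave 2 higher and 0 lower (480 and 438 of 5541). Scaling to reads gave 0 lower, and under it the median difference over all common regions was 0.16 on the log2 scale, against -0.02 with median centring. Quantile normalization gave 4 higher and 1 lower (1082 and 949 in the genome). The replicate set as a block gave 5 higher and 1 lower (670 and 375 in the genome). With 1 pair left out there were 0 to 5 higher and 0 to 1 lower (136 to 1185 and 42 to 1007 in the genome). The highest pileup in place of the mean gave the same values, since each region lies in 1 peak per library.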
